A study of Mus musculus with 6 samples.

Results

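Expression of 10 chemokine genes was followed in 3 mouse lung adenocarcinoma cell lines, KPR4, KPR5 and KPR8, in which 4-OH tamoxifen brings back expression of the tumour suppressor p53. They are Cxcl1, Cxcl2, Cxcl5, Ppbp, Cxcl15, Cxcl10, Cxcl12, Ccl2, Ccl5 and Ccl20, 10 of the 12393 genes that a probe set of this array names alone. They were taken by gene symbol, with no filter on expression, and 11 probe sets represent them because Cxcl12 has 2. Cells of each line received 250 nM 4-OH tamoxifen in ethanol for 24 h before RNA was collected, or ethanol. All lines are of C57/B6-129SvJae strain and were grown in DME with 10% serum, and each line and treatment gave 1 array, 6 in all. Whether each line descends from 1 clone, and the alleles it carries, are not given in the sources used here. No array holds tamoxifen without restorable p53, so the drug and p53 cannot be told apart.

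Chemokines are small secreted proteins that attract cells along a gradient by binding receptors coupled to G proteins. Those of the CXC class with a glutamate-leucine-arginine motif (Cxcl1, Cxcl2, Cxcl5, the Ppbp product and Cxcl15) recruit neutrophils, mostly through the receptor Cxcr2. Interferon-induced Cxcl10 draws T cells through Cxcr3, while Cxcl12 holds and guides cells that carry Cxcr4, and the CC chemokines Ccl2, Ccl5 and Ccl20 act on monocytes, T cells and dendritic cells. In many cell types NF-κB and interferon signalling switch these genes on, and p53 is known to oppose part of NF-κB output.

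The values are log2 expression, and the level of background was read from 27 Bacillus subtilis control probe sets, which reached at most 2.84 on any array. Of the 11 chemokine probe sets, 7 lay above that level on every array and 1, for Ccl5, on 0 arrays. The 3 known p53 targets looked at rose with tamoxifen, among them Cdkn1a, encoding the kinase inhibitor p21, by 4.63 ± 0.29 on the log2 scale (SE, adjusted p = 3.0e-06 in limma). Epithelial genes were high in all lines, with Epcam, Cdh1, Krt8, Krt18 and Krt19 between 8.89 and 13.5, whereas the 6 lung epithelial genes looked at, Nkx2-1 and Sftpc among them, did not exceed 3.13. The defining lung markers were thus at or near background in these lines of lung origin. Ptprc, which marks leukocytes, lay between 1.62 and 2.05, and 7 of 10 leukocyte genes stayed under log2 4 on every array. The summed level of all 10, as log2, was 6.52 to 6.78, and Cd68 was the only one of the 10 that rose with tamoxifen, by 1.02 ± 0.13 (adjusted p = 0.0007 in limma). Such bulk values cannot tell fewer cells that make a chemokine apart from less RNA per cell.

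After 24 h of 4-OH tamoxifen no chemokine of the 10 had a called change. In the limma fit, with terms for line and treatment over all 22626 probe sets and a Benjamini-Hochberg threshold of 0.05, 0 of 11 chemokine probe sets passed, against 7.92% of all probe sets called (4.23% higher and 3.69% lower). At an unadjusted p under 0.05 the count was also 0 of 11, against 21.8% of all probe sets. The smallest adjusted p was 0.269, that of Cxcl10. The median change of the members was 0.00, against -0.02 over all probe sets. By 95% intervals of the fit, the mean changes of all 11 lay between -0.63 and 0.78 on the log2 scale, and a p that misses the threshold does not show that levels were equal.

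Between lines, levels did differ. By limma's moderated F-test, 7 of 11 probe sets for 6 genes (Cxcl1, Cxcl2, Cxcl5, Ppbp, Cxcl12 and Cxcl10) differed between lines, where 24.2% of all probe sets did. On 6 of them, for 5 genes, both KPR4 arrays lay below both KPR5 arrays and these below both KPR8 arrays, an order found in 2.93% of all probe sets. This order is the one that these members show, so the share is a description and not a test. The median range between line means was 0.84 for the members and 0.35 over all probe sets.

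**Figure D1:**
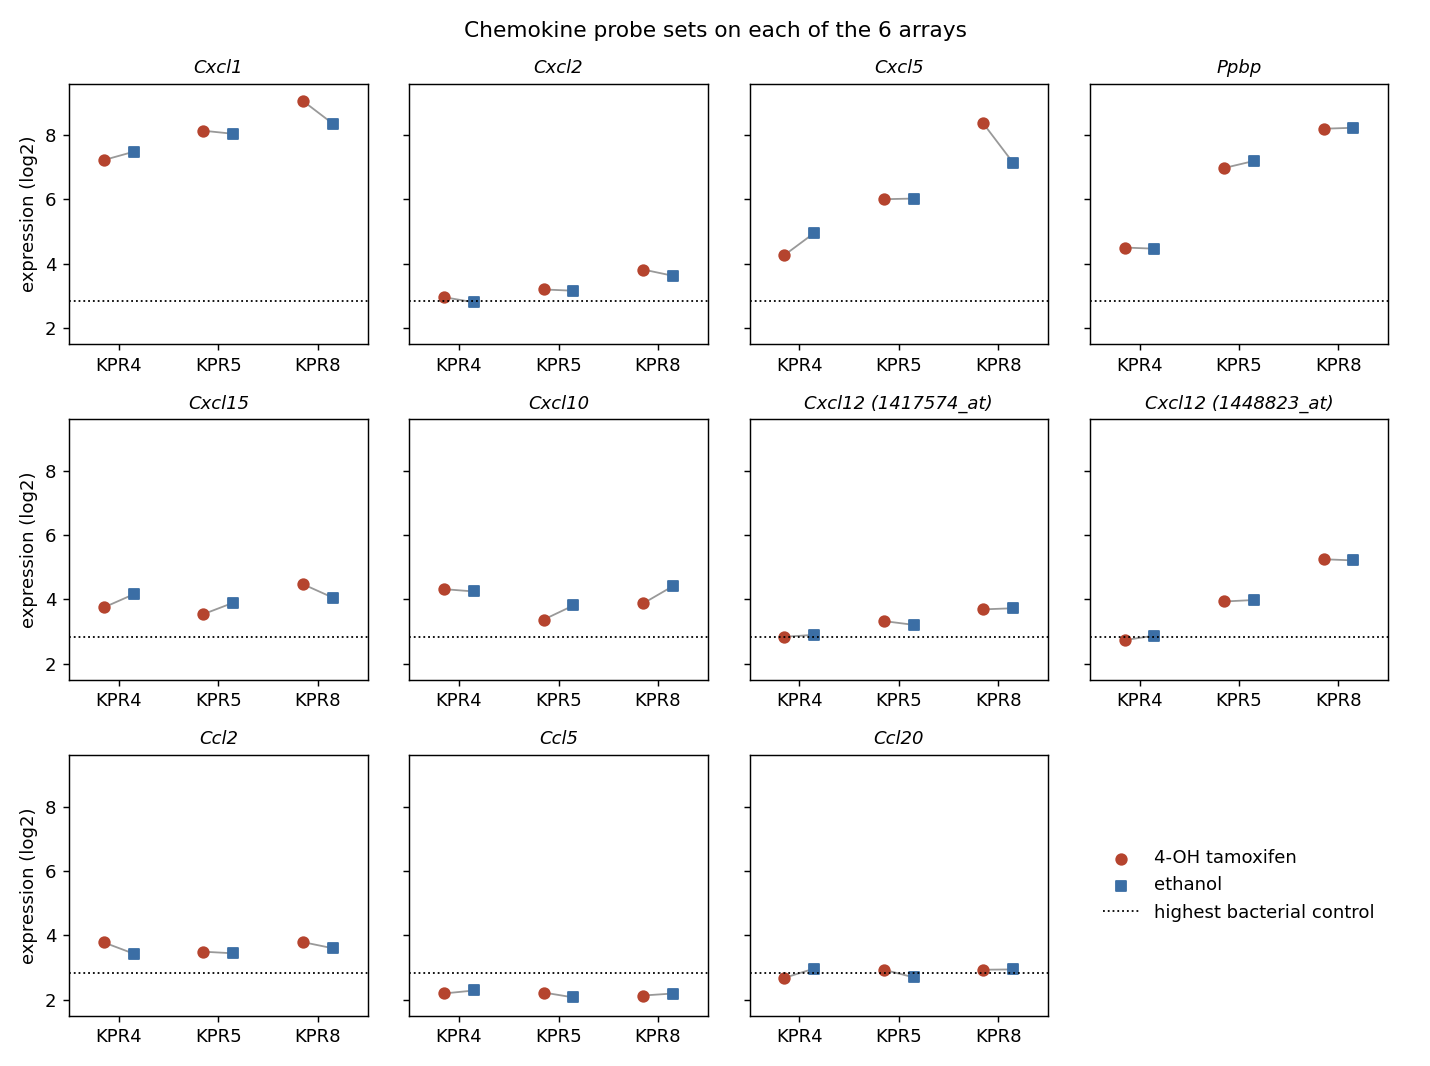
Log2 expression of each of the 11 chemokine probe sets (vertical axis) in KPR4, KPR5 and KPR8 (horizontal axis), with the 4-OH tamoxifen array as a circle left of the ethanol array as a square. The dotted line is the highest bacterial control at 2.84. Cxcl1, Cxcl2, Cxcl5, Ppbp and Cxcl12 stand in the order KPR4, KPR5, KPR8 from low to high, and all Ccl5 arrays lie under the dotted line.

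Ppbp, whose product is processed to the neutrophil attractant Cxcl7 and is best known from platelets, had the largest difference between lines among the members. In KPR4 it read 4.50 with tamoxifen and 4.46 with ethanol, in KPR5 6.98 and 7.19, and in KPR8 8.197 and 8.227. The lines did not overlap at all, and within a line the treatments lay close together. KPR4 was lower than KPR8 by a log2 difference of -3.73 ± 0.20 (SE), which is 13.3-fold, with an adjusted p of 1.2e-07 in limma. It was also lower than KPR5, by -2.60 ± 0.20 (limma adjusted p = 4.0e-06), and KPR5 was lower than KPR8 by -1.13 ± 0.20 (limma adjusted p = 0.0056). Platelet genes gave no parallel signal: the 4 measured ones (Pf4, Itga2b, Gp1bb and Gp9) lay between 2.08 and 3.14, and their summed level, as log2, was 4.72 to 4.82 on all 6 arrays. Tamoxifen changed Ppbp by -0.07 ± 0.16 on average (limma adjusted p = 0.864).

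Cxcl5, an epithelial neutrophil attractant, followed the same order of lines. It read 4.26 with tamoxifen and 4.95 with ethanol in KPR4, 6.004 and 6.025 in KPR5, and 8.36 and 7.14 in KPR8. All neighbouring lines were apart, KPR4 from KPR5 by -1.41 ± 0.34 (limma adjusted p = 0.016) and KPR5 from KPR8 by -1.73 ± 0.34 (limma adjusted p = 0.0099). From KPR4 to KPR8 the log2 difference was -3.14 ± 0.34, or 8.81-fold (limma adjusted p = 6.1e-05). These contrasts average over both treatments, and the gap between KPR4 and KPR8 was wider with tamoxifen than with ethanol. Its response to tamoxifen ran in opposite directions, with -0.69 in KPR4, 1.22 in KPR8 and -0.02 in KPR5. The mean change of 0.17 ± 0.28 did not pass (limma adjusted p = 0.798). Opposite changes of at least 0.5 in KPR4 and KPR8 were seen in 0.217% of all probe sets. That pair of lines is the one in which Cxcl5 showed them, so the share is a description only. With 1 array each, this difference of response was not tested.

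Cxcl1, the chief neutrophil attractant made by many epithelia and a classic NF-κB target, was well above background in all lines. With tamoxifen and ethanol it read 7.22 and 7.48 in KPR4, 8.14 and 8.04 in KPR5, and 9.06 and 8.36 in KPR8. The line ranges again did not overlap, but of the contrasts KPR4 against KPR8 alone passed, at -1.36 ± 0.23, or 2.56-fold (limma adjusted p = 0.0018). The steps between neighbours, -0.73 ± 0.23 from KPR4 to KPR5 (limma adjusted p = 0.0525) and -0.62 ± 0.23 from KPR5 to KPR8 (limma adjusted p = 0.116), did not pass the threshold, although KPR4 against KPR5 passed under 4 alternatives (limma adjusted p = 0.0222 to 0.0484). As for Cxcl5, the tamoxifen response was lowest in KPR4 and highest in KPR8, with -0.26, 0.10 and 0.71 in KPR4, KPR5 and KPR8, and a mean of 0.18 ± 0.19 (limma adjusted p = 0.659). RNA quality, read as Gapdh's 3′ control probe set less its 5′ one, moved as well: tamoxifen minus ethanol was 0.24 for KPR4, 0.29 for KPR5 and -0.40 for KPR8. For Actb these values were 0.16, 0.39 and -0.07. Its part in the Cxcl1 and Cxcl5 responses was not tested.

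Cxcl2, which acts on the same receptor as Cxcl1, lay close to background. It read 2.96 with tamoxifen and 2.80 with ethanol in KPR4, 3.20 and 3.16 in KPR5, and 3.82 and 3.62 in KPR8. One KPR4 array is under the highest bacterial control, and with that array set to the control level KPR8 was at least 1.77-fold higher than KPR4 (limma adjusted p = 0.0018). KPR5 was lower than KPR8 by -0.54 ± 0.14 (limma adjusted p = 0.0316, and 0.0526 without the variance trend), while KPR4 against KPR5, with the same array set to that level, did not pass (limma adjusted p = 0.215). Cxcl15, known as lungkine and made by lung epithelium in the mouse, read 3.75 and 4.16 in KPR4, 3.54 and 3.90 in KPR5 and 4.48 and 4.06 in KPR8 with tamoxifen and ethanol. KPR4 overlapped both other lines, and neither the line differences (F-test, limma adjusted p = 0.155) nor the change of -0.12 ± 0.17 with tamoxifen (limma adjusted p = 0.770) passed.

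Over the 6 arrays, Cxcl1 correlated with Cxcl5 at r = 0.990 and with Ppbp at 0.910, and Cxcl5 with Ppbp at 0.912 (Pearson). These arrays are pairs from 3 lines, so the values mostly restate the order of lines. Among 799 probe sets of other genes with a range of at least log2 2, the patterns most like that of Ppbp over the 6 arrays were those of Cldn3 (r = 0.997), a tight junction protein, Cwh43 (0.996) and Dusp14 (0.995). For Cxcl5 they were Qk (0.981), Tmem47 (0.972) and Prickle1 (0.971).

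Promoter sequences are shown for 4 members that share the order of lines and for Cxcl10, which does not. RefSeq (GRCm38.p6) gave a promoter for 7 of the 10 genes, and Cxcl5, Ccl2 and Ccl5 had no entry in the table used. Each entry gives the bases just before the annotated start, 5′ to 3′ along the gene, with matches to the NF-κB consensus in capitals.
Cxcl1, chr5:90891080-90891244, plus strand: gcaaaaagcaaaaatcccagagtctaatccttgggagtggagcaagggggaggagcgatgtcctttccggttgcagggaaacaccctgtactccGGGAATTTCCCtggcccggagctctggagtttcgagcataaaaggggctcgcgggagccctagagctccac
Cxcl2, chr5:90903734-90903898, plus strand: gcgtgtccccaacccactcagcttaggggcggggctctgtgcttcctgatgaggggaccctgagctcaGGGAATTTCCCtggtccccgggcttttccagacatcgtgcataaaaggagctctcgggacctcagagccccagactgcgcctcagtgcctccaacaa
Ppbp, chr5:90768353-90768517, plus strand: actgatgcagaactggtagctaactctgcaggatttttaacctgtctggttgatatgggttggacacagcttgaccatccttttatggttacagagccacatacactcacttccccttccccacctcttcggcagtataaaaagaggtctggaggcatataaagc
Cxcl12, chr6:117168370-117168534, plus strand: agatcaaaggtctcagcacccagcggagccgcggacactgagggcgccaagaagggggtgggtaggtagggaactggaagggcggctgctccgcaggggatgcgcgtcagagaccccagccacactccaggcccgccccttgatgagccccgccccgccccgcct
Cxcl10, chr5:92348890-92349054, minus strand: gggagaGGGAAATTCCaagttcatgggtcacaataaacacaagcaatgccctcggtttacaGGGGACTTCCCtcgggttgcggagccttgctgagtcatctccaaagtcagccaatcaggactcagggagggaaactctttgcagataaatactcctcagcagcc

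The run GGGAATTTCC begins at -71 from the start of Cxcl1 and at -97 from that of Cxcl2. The run was taken from the Cxcl1 promoter itself, so its match there was fixed in advance. It occurs on either strand within 250 bases upstream in 0.0852% of 32851 promoters of the table. Read on both strands, the broader NF-κB consensus was matched in Cxcl1, Cxcl2, Cxcl10 and Ccl20, 4 of the 7 members with a promoter and 7.25% of all promoters, and the run and the consensus overlap in Cxcl1 and Cxcl2. No match to it was present in the windows of Ppbp and Cxcl12. The Ppbp window has TATAAA at -30 and -8 (12.4% of all promoters hold that run on either strand), and the Cxcl12 window holds GGGCGG on either strand (32.7% of all promoters). TATAAA was also found in Cxcl15, at -27, and GGGCGG in Cxcl2, at -139. The interferon-response motif TTTCNNTTTC was found in Cxcl10 alone among the 7 members with a promoter, against 2.98% of all promoters. Its match, on the opposite strand, begins at -213, upstream of the bases printed above. The p53 half-site consensus was matched within 250 bases upstream in 0 of the 7 members with a promoter and in 7.13% of all promoters. A match is a run of letters and not a measured binding site.

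Cxcl1, Cxcl2, Cxcl5, Ppbp and Cxcl15 belong to 1 gene cluster on mouse chromosome 5, and the 7 genes from Cxcl5 to Cxcl2 with 5 protein-coding neighbours on each side were looked up after the member values were seen. Of these 17 genes, 5 had no named probe set. The direct neighbour of Ppbp, Pf4, lay between 2.37 and 2.70, under the highest bacterial control on all arrays. Afp before the cluster and Epgn after it had the order KPR4, KPR5, KPR8 from low to high. Alb, also before it, did not differ between lines by the F-test (limma adjusted p = 0.565). Afm, on the same side, lay under the highest bacterial control on all arrays. Afp, the fetal liver protein alpha-fetoprotein, which lies before Cxcl5, read 4.97 with tamoxifen and 5.16 with ethanol in KPR4, 6.55 and 5.56 in KPR5, and 8.81 and 8.41 in KPR8, so that KPR4 was below KPR8 by -3.55 (limma adjusted p = 2.1e-06). Probe sets of Afp disagree in size, with -1.61 and -2.28 on 2 others, while the remaining 2, under the highest bacterial control on all arrays, did not pass. Epgn, a ligand of the EGF receptor, read 3.13 and 3.43 in KPR4, 3.50 and 3.60 in KPR5 and 3.78 and 3.90 in KPR8 with tamoxifen and ethanol. For Epgn, KPR4 was below KPR8 by -0.56 (limma adjusted p = 0.0217). KPR4 against KPR5 and KPR5 against KPR8 did not pass (limma adjusted p = 0.262 and 0.257). Btc, another such ligand on that side, was higher in KPR4 than in KPR8, by 1.31 (limma adjusted p = 0.00056) on its brighter probe set and by 0.32 (limma adjusted p = 0.328) on the other. Ereg, also such a ligand, rose with tamoxifen by 1.11 ± 0.16 (limma adjusted p = 0.0012) and did not differ between lines by the F-test (limma adjusted p = 0.203).

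**Figure D2:**
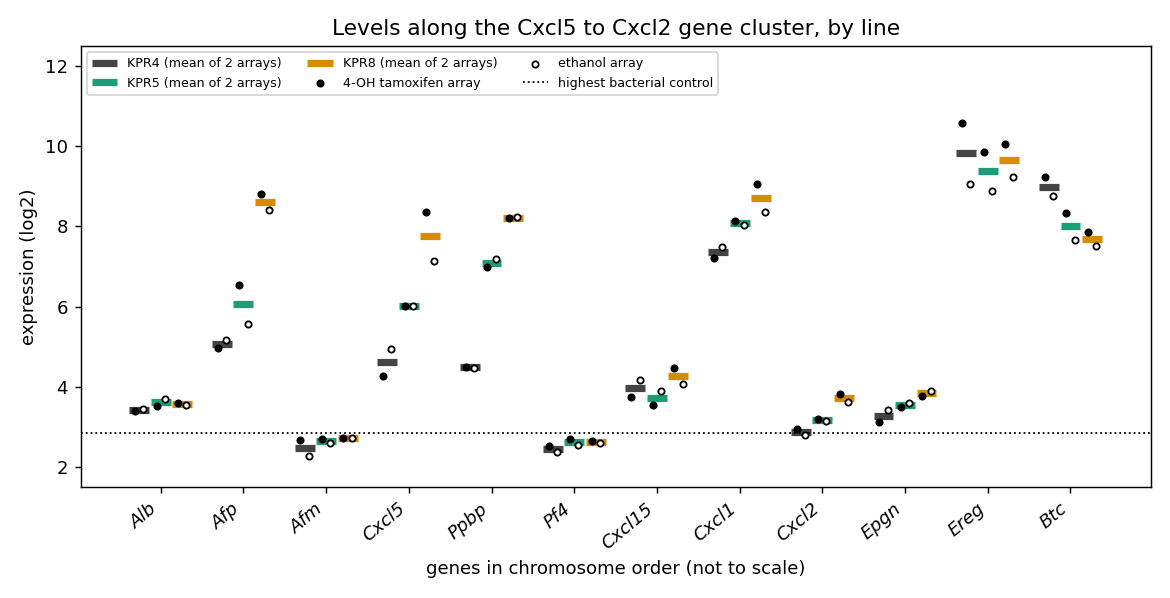
Log2 expression (vertical axis) of the genes around the Cxcl5 to Cxcl2 cluster in chromosome order (horizontal axis, not to scale), using the probe set with the highest mean. Coloured bars are the means of 2 arrays in KPR4, KPR5 and KPR8, filled points the 4-OH tamoxifen arrays and open points the ethanol arrays. The means of Afp, Cxcl5, Ppbp, Cxcl1, Cxcl2 and Epgn climb from KPR4 to KPR8, and those of Btc run the other way. Afm and Pf4 lie under the dotted background line at 2.84 on all arrays.

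Cxcl12, the ligand of Cxcr4, had the same order of lines on both of its probe sets. The brighter one read 2.74 with tamoxifen and 2.88 with ethanol in KPR4, 3.94 and 3.98 in KPR5, and 5.25 and 5.22 in KPR8. KPR4 lay at background, and with its lower array set to the control level KPR8 was at least 5.20-fold higher (limma adjusted p = 1.1e-06). On the same footing KPR5 was at least 2.15-fold higher than KPR4 (limma adjusted p = 0.00065), and KPR5 was below KPR8 (log2 difference -1.27 ± 0.16, limma adjusted p = 0.00073). The dimmer probe set read 2.84 and 2.90 in KPR4, 3.33 and 3.21 in KPR5 and 3.69 and 3.73 in KPR8, and only KPR4 against KPR8 passed, at -0.84 ± 0.14 (limma adjusted p = 0.0016). Tamoxifen changed Cxcl12 by -0.05 ± 0.13 and 0.01 ± 0.12 on these probe sets, and neither passed (limma adjusted p = 0.886 and 0.982). Patterns most like the brighter one were those of Glrp1 (r = 0.997 over 6 arrays), Zfp37 (0.996) and Ctsw (0.988). Fibroblasts are a known source of Cxcl12, and the summed level of 7 fibroblast genes, as log2, was 8.29 and 8.08 in KPR4, 7.08 and 7.25 in KPR5 and 7.76 and 7.86 in KPR8 with tamoxifen and ethanol. Col1a1, the brightest of them, had line means of 7.59, 5.62 and 6.94 in KPR4, KPR5 and KPR8. Of the 7 genes, 0 were called higher in KPR4 than in KPR8 and 2, Col3a1 and Lum, were called lower (limma adjusted p = 0.0228 and 0.0406). Of all probe sets 9.23% were higher and 8.35% lower. The part of fibroblast RNA in the Cxcl12 values was not tested.

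Cxcl10, the interferon-induced attractant of T cells, had another pattern. It read 4.32 with tamoxifen and 4.25 with ethanol in KPR4, 3.37 and 3.81 in KPR5, and 3.88 and 4.42 in KPR8. KPR5 was lowest and overlapped neither KPR4 nor KPR8. KPR4 was higher than KPR5 by 0.69 ± 0.18, or 1.62-fold (limma adjusted p = 0.0243). Contrasts with KPR8 did not pass, with 0.14 ± 0.18 for KPR4 minus KPR8 (limma adjusted p = 0.681) and -0.55 ± 0.18 for KPR5 minus KPR8 (limma adjusted p = 0.0804). Its tamoxifen-minus-ethanol values were 0.07 (KPR4), -0.44 (KPR5) and -0.54 (KPR8), and the mean of -0.30 ± 0.15 did not pass (95% interval -0.63 to 0.02, limma adjusted p = 0.269).

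The CC chemokines gave little signal. Ccl2, the main attractant of monocytes, read 3.78 with tamoxifen and 3.43 with ethanol in KPR4, 3.49 and 3.44 in KPR5, and 3.79 and 3.60 in KPR8. It was higher with tamoxifen in each line by 0.35, 0.05 and 0.19, yet the mean of 0.20 ± 0.12 did not pass (limma adjusted p = 0.410). Ccl5, which attracts T cells, lay between 2.07 and 2.28, under the highest bacterial control on every array. Ccl20, the ligand of Ccr6, lay between 2.67 and 2.97, on either side of that control. For Ccl2, Ccl5 and Ccl20 the F-test between lines did not pass (limma adjusted p = 0.515, 0.806 and 0.777). These levels give no measure of Ccl5 or Ccl20 above background on this array.

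**Figure D3:**
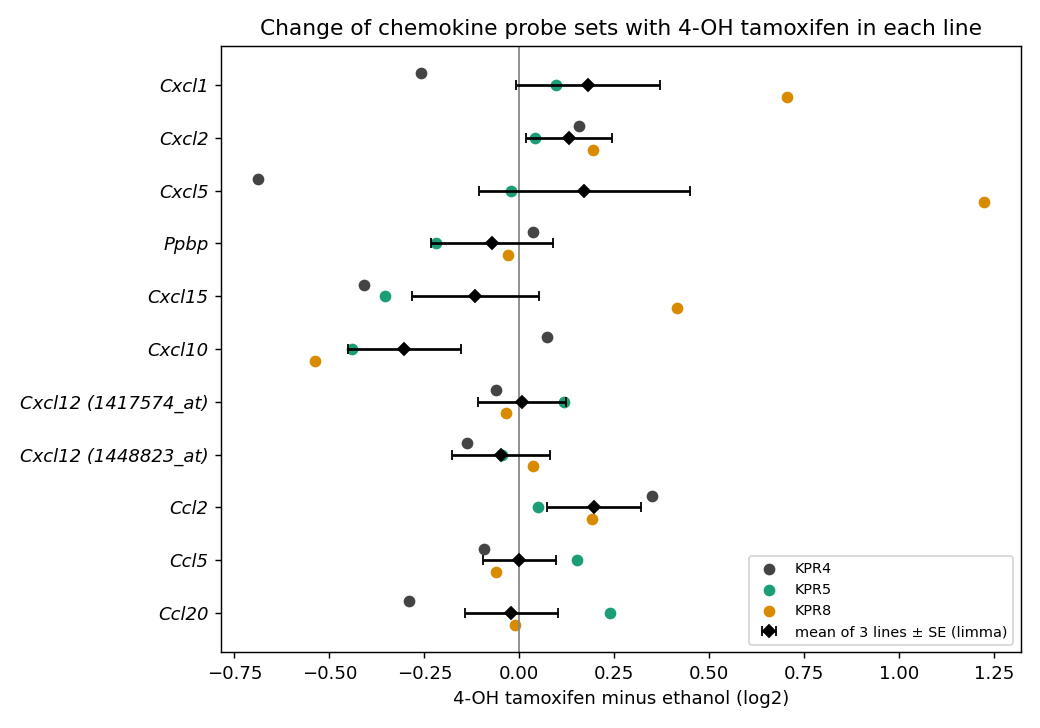
Change with 4-OH tamoxifen, as tamoxifen minus ethanol on the log2 scale (horizontal axis), for each chemokine probe set (vertical axis). Coloured points are the 3 lines and black diamonds the mean with its standard error from limma, with 0 of 11 past the threshold. Cxcl5 spreads most, from -0.69 in KPR4 to 1.22 in KPR8.

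**Figure D4:**
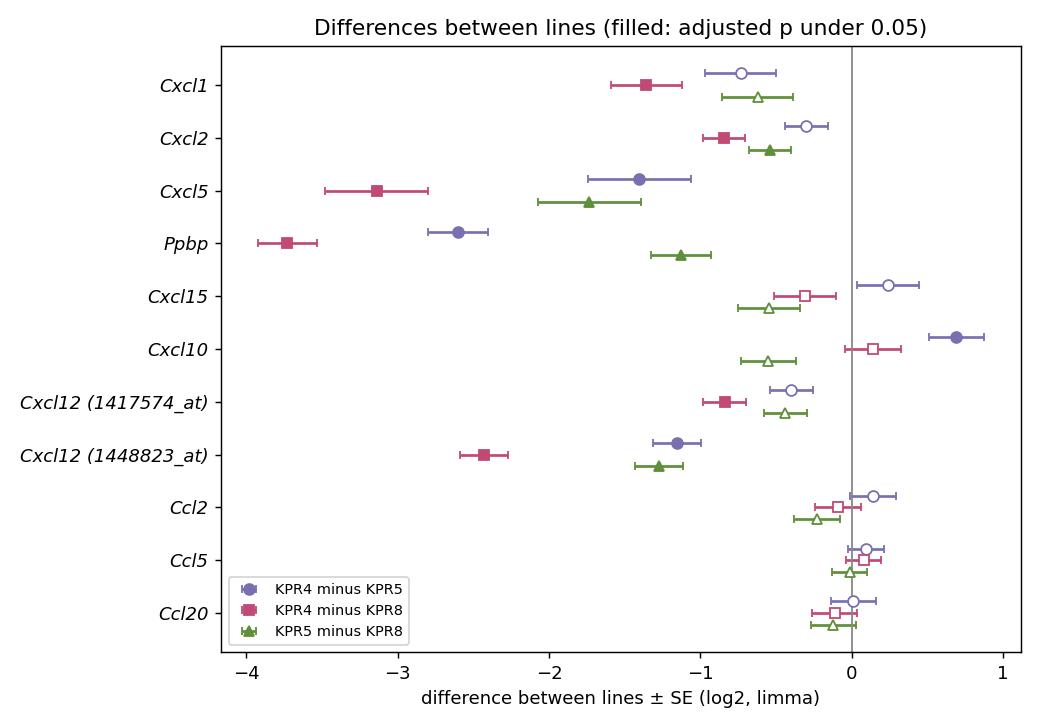
Differences between lines on the log2 scale with standard errors from limma (horizontal axis) for each chemokine probe set (vertical axis), filled where the adjusted p was under 0.05. Circles are KPR4 minus KPR5, squares KPR4 minus KPR8 and triangles KPR5 minus KPR8. The 6 filled squares lie left of 0, from -3.73 for Ppbp to -0.84 for the dimmer probe set of Cxcl12.

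Of the 33 line contrasts of the members, 14 passed. KPR4 was lower than KPR8 on 6 probe sets and higher on 0, where 8.35% of all probe sets were lower and 9.23% higher (17.6% either way). Against KPR5, KPR4 was lower on 3 (7.98% of all) and higher on 1 (7.35% of all, 15.3% either way), and KPR5 was lower than KPR8 on 4 (4.59% of all) and higher on 0 (5.14% of all, 9.73% either way). Without the treatment term 5 of the 14 lost their call, namely KPR5 minus KPR8 for Cxcl2, Cxcl5 and Ppbp and KPR4 minus KPR5 for Cxcl5 and Cxcl10 (limma adjusted p = 0.100 to 0.169).

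Of 22 other chemokines measured, 0 rose and 0 fell with tamoxifen, where 4.23% of all probe sets rose and 3.69% fell. Their median change was 0.03, and 7 differed between lines, against 24.2% of all probe sets. Cxcl13, the attractant of B cells, named after its values were seen, was lower with tamoxifen in KPR4, KPR5 and KPR8, by -0.44, -0.40 and -0.41, and did not pass (limma adjusted p = 0.136). Cxcl16, a membrane-bound chemokine and ligand of Cxcr6, had the order of Cxcl1, Cxcl2, Cxcl5 and Ppbp, which Cxcl15 did not have. Line means of Cxcl16 were 7.61 in KPR4, 8.63 in KPR5 and 9.13 in KPR8. KPR4 was lower than KPR8 by -1.53 on this probe set (limma adjusted p = 0.00012) and by -1.81 on a second one. Cxcl14 was highest in KPR8, with means of 3.19, 2.85 and 4.11 in KPR4, KPR5 and KPR8. Ccl9 (5.55, 3.98 and 4.31) and the membrane-anchored Cx3cl1 (4.34, 3.38 and 3.28) were highest in KPR4 instead. Dimmer probe sets near background, 1 for Ccl9 and 2 for Cx3cl1, did not pass the F-test (limma adjusted p = 0.201, 0.161 and 0.814). In all, 4 of the 22 were lower and 3 higher in KPR4 than in KPR8, against 8.35% and 9.23% of all probe sets.

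Receptors for these ligands were mostly near background, with 17 of 21 measured under log2 4 on every array. The brightest, Ackr3, named after its values were seen, lay between 8.02 and 8.98. Neither its change with tamoxifen nor its line differences passed (limma adjusted p = 0.776 and 0.450). The receptor of the neutrophil attractants, Cxcr2, read 2.77, 2.66 and 3.20 with tamoxifen in KPR4, KPR5 and KPR8, against 3.18, 3.42 and 3.65 with ethanol. It fell by 0.54 on the log2 scale (SE 0.12, limma adjusted p = 0.0165), the only receptor of the 21 called, against 7.92% of all probe sets. Its tamoxifen arrays of KPR4 and KPR5 lay under the highest bacterial control, so the size of the fall is not well measured, and without KPR5 the change was -0.43 (limma adjusted p = 0.0993). Cxcr4, a receptor of Cxcl12, had line means of 5.62, 5.52 and 6.28 in KPR4, KPR5 and KPR8 and differed by the F-test (limma adjusted p = 0.0363), as did Ccr1 (4.29, 3.98 and 4.81, limma adjusted p = 0.016). A second Ccr1 probe set, under the highest bacterial control on all arrays, did not pass the F-test (limma adjusted p = 0.487).

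In the NF-κB pathway, 0 of 16 measured genes rose and 0 fell with tamoxifen on the brightest probe set of each, with a median change of -0.02. Of all probe sets 4.23% rose and 3.69% fell. For Ikbkg, the regulatory subunit of the IκB kinase, probe sets differed in their call: the brightest had 0.46 ± 0.15 (limma adjusted p = 0.0914), and a second one, above background on all arrays, rose by 0.73 ± 0.16 (limma adjusted p = 0.0164), with 0.86, 0.53 and 0.82 in KPR4, KPR5 and KPR8. Nfkbia, the inhibitor that NF-κB itself induces, read 10.07, 10.10 and 10.09 with tamoxifen in KPR4, KPR5 and KPR8, against 10.32, 10.22 and 10.44 with ethanol (-0.24 ± 0.12, limma adjusted p = 0.282), and is named after its values were seen. Between lines 6 of the 16 differed, against 24.2% of all probe sets. Traf1, a TNF receptor adaptor, was highest in KPR8, with means of 4.28, 3.65 and 5.73 in KPR4, KPR5 and KPR8, and so was the inhibitor Nfkbie, at 3.60, 3.75 and 4.63. Ikbkg and the co-regulator Bcl3 were highest in KPR4, with means of 9.40, 8.04 and 8.33 and of 5.13, 4.47 and 4.16. KPR4 was lower than KPR8 for 2 and higher for 2 of the 16 genes, against 8.35% and 9.23% of all probe sets.

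Among 19 measured interferon-response genes (median change 0.10) 1 rose with tamoxifen and 0 fell, against 4.23% and 3.69% of all probe sets. It was Usp18, the protease that removes Isg15, by 1.07 ± 0.24 (limma adjusted p = 0.0183), with 0.11 in KPR4, 1.28 in KPR5 and 1.81 in KPR8. Without KPR8 the change was 0.70 (limma adjusted p = 0.133). Of the 19, 5 differed between lines, close to the 24.2% of all probe sets: Usp18 was highest in KPR8 (means 2.99, 3.75 and 4.89 in KPR4, KPR5 and KPR8), and Ifngr1, Ifngr2 and Irf9 were highest in KPR4 (means 5.14, 5.48 and 4.89 there). On a second Ifngr2 probe set, above background on all arrays, the lines differed by the F-test (limma adjusted p = 0.0136). There KPR4 minus KPR8 was 0.22 and did not pass (limma adjusted p = 0.424).

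Of 16 cytokines and receptors upstream of chemokine induction, 7 differed between lines, against 24.2% of all probe sets. KPR4 was higher than KPR8 for 5 and lower for 2 of the 16, against 9.23% and 8.35% of all probe sets. Il1r1, the receptor of interleukin-1, had means of 9.10, 5.53 and 5.47 in KPR4, KPR5 and KPR8, and its antagonist Il1rn 9.43, 5.69 and 5.76. For Il33, an epithelial alarmin, the means were 7.03, 4.18 and 2.93 (F-test, limma adjusted p = 3.3e-06), and 5 of 6 arrays were above the highest bacterial control, the exception being KPR8 with tamoxifen. The 2 lower in KPR4, named after their values were seen, were the endotoxin receptor Tlr4, with means of 4.30, 5.11 and 5.37, and the inflammatory cytokine Il6, with 3.10, 3.51 and 3.67 (KPR4 minus KPR8, limma adjusted p = 0.0054 and 0.0247). KPR4 thus had the lowest Tlr4 and Il6 and the highest Il1r1, Il1rn and Il33. With tamoxifen 2 rose and 0 fell, against 4.23% and 3.69% of all probe sets. Lif, a cytokine of the interleukin-6 family, rose by 1.03 ± 0.19 (limma adjusted p = 0.0054). Myd88, the adaptor of interleukin-1 and Toll-like receptors, rose by 0.60 ± 0.15 (limma adjusted p = 0.027). A dimmer Lif probe set near background had 0.00, and Myd88 lost its call when any line was left out (limma adjusted p = 0.0502 to 0.189).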

How the data were processed

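Per the submitters' processing notes, the authors made the deposited log2 values with GCRMA 2.20.0 in R 2.11.0, which models background from probe sequence and normalizes between arrays. Per the labels' protocols, 100 ng of total RNA was amplified with the NuGEN Ovation V2 kit. The table holds 22690 probe sets, of which 64 controls were left out of the tests. GEO's platform annotation named 20380 of the rest with 1 gene symbol and 691 with several, and 1555 have none there. No detection calls or scanner files were used here, so saturation was not examined.

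The fit used limma 3.58.1 (R 4.3.3), with terms for line and treatment, a variance trend, and Benjamini-Hochberg adjustment over 22626 probe sets (threshold 0.05). The fit has 2 residual degrees of freedom and a prior of 9.89, so p-values lean on the spread of other probe sets and measure only the spread between these 6 arrays. In a line contrast the tamoxifen and ethanol arrays of a line stand in for replicates, so a response that differs between lines enters the SE. The same code was tested on simulated data. The line pairs the arrays by design: deviations of the tamoxifen and ethanol arrays of 1 line correlated at 0.843, 0.676 and 0.702 in KPR4, KPR5 and KPR8. The number of arrays limits the precision.

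The members and lists were chosen with earlier results of these data known. From each list, up to 4 genes with the largest called change and 4 with the largest called range between lines were named. For each gene, the probe set with the highest mean was used in the lists, whereas the shares beside the list counts are over all probe sets. In the fit with 1 probe set per gene, 3391 of 12393 differed between lines. Alternatives were a filter at log2 4 on 3 arrays, no trend, 1 probe set per gene, quantile normalization, leaving out each line, no line or treatment term, and a background floor.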

Additional observations from a re-analysis of the deposited data

Results flagged for a closer look

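The response of Cxcl5 to 4-OH tamoxifen had opposite directions in KPR4 and KPR8. It was -0.69 in KPR4 and 1.22 in KPR8, a difference of -1.91 (KPR4 minus KPR8, log2). With 1 array per line and treatment the difference was not tested. Among the members, no other had opposite changes of at least 0.5 in a pair of lines. Outside the members, Il33 (1.04 in KPR4 and -0.51 in KPR8) and Ackr3 (0.68 and -0.66) had opposite changes of that size, with the rise in KPR4.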

How the results depend on the processing

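No member changed with tamoxifen under any alternative run: 0 of 101 recomputed changes passed, with adjusted p from 0.141 to 1.0. With 1 line left out in turn, 9 of these changes took the other sign, and the lowest and highest values were -0.082 (without KPR8) and 0.40 for Cxcl1, -0.36 (without KPR8) and 0.60 for Cxcl5, -0.12 and 0.0030 (without KPR5) for Ppbp, -0.38 and 0.0315 (without KPR4; 0.0039 without KPR5) for Cxcl15, -0.048 (without KPR5) and 0.042 for the dimmer Cxcl12 probe set, -0.077 and 0.045 (without KPR4; 0.03 without KPR8) for Ccl5, and -0.15 and 0.11 (without KPR4) for Ccl20. Quantile normalization reversed uncalled contrasts of Ccl5 (KPR5 minus KPR8, 0.0077) and Ccl20 (KPR4 minus KPR5, -0.0026). All 14 called line contrasts passed in the fit with the uninvolved line left out, 13 of 14 without the variance trend (Cxcl2, KPR5 minus KPR8, adjusted p = 0.0526), and 9 of 14 without the treatment term. Cxcl1, KPR4 minus KPR5, gained a call with the filter (0.032), 1 probe set per gene (0.0424), quantile normalization (0.0484) and without KPR8 (0.0222).

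Over all probe sets, 957 were higher and 835 lower with tamoxifen; without the line term (no replicate block, unpaired) these counts were 29 and 1, and with 1 line left out they ran from 556 to 819 and from 361 to 673, the lowest without KPR4. The 5466 that differed between lines were 3391 with 1 probe set per gene, 1038 without the treatment term and 2017 to 4680 with 1 line left out, where 2 lines are compared. The contrast counts (KPR4-KPR5, KPR4-KPR8, KPR5-KPR8) of 3468, 3978 and 2201 were 2258, 2465 and 1342 with 1 probe set per gene, which tests fewer, and 765, 1080 and 122 without the treatment term. Of the members, 7 differed between lines, 4 with the filter on low values, which tests 5 of the 11, and 4 to 6 with 1 line left out (4 without KPR4). Their contrast counts of 4, 6 and 4 became 3 for KPR4-KPR8 and 2 for KPR5-KPR8 with the filter, and 2 for KPR4-KPR5 and 1 for KPR5-KPR8 without the treatment term.

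With all values set to the background level, added after seeing the data for the lines, 3634 probe sets became constant and entered the variance prior; 2 members then differed by the F-test and 1, 3 and 0 by the contrasts, while 14 of 14 contrasts kept their call when only member values were set to it. With the filter, 3 other chemokines differed between lines, and Cxcr2 (0 receptors lower) and Usp18 (0 interferon genes higher) were not tested. The cause of the other shifts was not tested.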
